A study of Mus musculus with 8 samples.

Results

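The surrogate light chain genes Igll1, Vpreb1, Vpreb2 and Vpreb3 and the kappa light chain gene Igkc were followed in cultured mouse pre-B cells. They were taken as every non-control probe whose gene name in the scanner files is 1 of these 5 names, which gave 5 probes of 55681, 1 per gene, or 5 of 34797 gene names. RNA came from wk3, a pre-B cell line that carries no functional SLP-65 (genotype SLP-65-/-) in all 4 groups, and was read on 1-colour Agilent arrays. The groups were cells with a retroviral miR-15 sponge kept without IL-7 for 36 h, cells with a scrambled sponge kept without IL-7 for 36 h, cells with the miR-15 sponge in excess IL-7, and cells with the scrambled sponge in excess IL-7. The miR-15 sponge is a transcript built to bind all members of the miR-15 microRNA family, the scrambled sponge is its control, transduced cells were selected with puromycin, and IL-7 was given as the supernatant of IL-7-producing J558L cells. Each group had 2 arrays, from 2 experiments with independently made clones. The sponge transcript itself was not measured here, so the construct labels were not checked.

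In a pre-B cell the immunoglobulin heavy chain reaches the surface with a surrogate light chain in place of a kappa or lambda chain. In the mouse the surrogate chain is made of lambda5, the product of Igll1, and of VpreB, the product of Vpreb1 or Vpreb2, and the complex signals through Cd79a and Cd79b. IL-7 keeps pre-B cells dividing, and its loss is a standard way to start their differentiation towards cells that recombine and express a conventional light chain.

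The sequences behind the kappa and the surrogate readings are given first, because the 60-base probe, and not the gene, is what each value measures. The probe named Igkc (mm9, chr6:70690489-70690548, plus strand) was designed on a full-length cDNA described as unclassifiable, and no reading frame through it was open. A different probe, whose gene name is a transcript identifier and whose description is immunoglobulin kappa constant, lay 13738 bases before it on the same strand (mm9, chr6:70676692-70676751). It ended in frame on the stop codon, shown in capitals, and is called the kappa constant-region probe below. The capitals in the Igkc-named probe mark an AATAAA hexamer, the commonest polyadenylation signal. The Vpreb2 probe (mm9, chr16:17981114-17981173, plus strand) likewise ended on a stop codon, and its annotation listed the Vpreb1 transcript beside that of Vpreb2, so the pair cannot be told apart by it. The Igll1 probe (mm9, chr16:16861104-16861163, minus strand) is shown for comparison.
Igkc-named probe: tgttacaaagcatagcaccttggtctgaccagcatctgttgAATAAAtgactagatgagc
kappa constant-region probe: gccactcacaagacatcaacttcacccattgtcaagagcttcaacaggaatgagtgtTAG
Vpreb2 probe: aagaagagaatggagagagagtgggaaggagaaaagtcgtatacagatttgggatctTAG
Igll1 probe: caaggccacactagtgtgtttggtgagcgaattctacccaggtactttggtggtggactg

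The 8 arrays shared 1 slide and 1 scan. Between 50.6% and 56.6% of non-control probes were well above background, and the 75th percentile of the processed signal ran from 297 to 410 intensity units. The arrays with and without IL-7 had different first indices of slide position, and the constructs different second indices, so position and treatment cannot be told apart. All 6 light chain probes were well above background, unflagged and unsaturated on all 8 arrays. All 11 markers of the B lineage precursor list were above background on all 8 arrays, with a summed signal of 1260 to 1270 times the array's 75th percentile in sponge cells without IL-7, 1520 to 1580 in scrambled cells without IL-7, 1050 to 1090 in sponge cells with IL-7 and 1210 to 1220 in scrambled cells with IL-7. Of 10 myeloid markers 5 were above background on all arrays and summed to between 163 and 218 times the percentile over the 8 arrays, led by Csf3r and Itgam, while S100a9 was not above background on any array. The summed T cell markers stayed between 4.36 and 5.62 times the percentile, and Cd3g, Cd8b1 and the T cell receptor beta joining probe were not above background on any array. Summed signals ran from 0.673 to 0.887 times the percentile for NK cell markers, 0.227 to 0.31 for erythroid markers and 0.111 to 0.19 for fibroblast or stroma markers. The part of other cell types in the results was not tested. Blnk, which encodes SLP-65, read at 7.69 and 7.66 log2 units above the percentile in sponge cells without IL-7, 8.19 and 8.24 in scrambled cells without IL-7, 7.16 and 7.16 in sponge cells with IL-7 and 7.56 and 7.42 in scrambled cells with IL-7. Whether the Blnk probe lies in the disrupted part of the gene is not given in the sources used here.

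Withdrawal of IL-7 raised both kappa probes several-fold in both constructs. The 4 surrogate light chain genes differed between the media by less than 0.4 log2 units in either construct. Their signs turned under other scalings, except that of Vpreb1 in sponge cells. The kappa constant-region probe was 6.15-fold higher without IL-7 in sponge cells and 10.8-fold higher in scrambled cells. The Igkc-named probe was 6.18-fold higher in sponge cells and 6.82-fold higher in scrambled cells. Changes are differences of log2 signal after each array's 75th percentile was subtracted, given with the standard error of a limma fit over all 21318 genes, and called means an adjusted p under 0.05. In sponge cells 2 of the 5 members were called, Igkc higher and Vpreb2 lower, where 23.2% of all genes tested were called. In scrambled cells 2 of the 5 were called, Igkc higher and Igll1 lower, where 48.1% of all genes tested were called.

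The kappa constant region is shared by every kappa chain, and its probe gave processed signals of 11900 and 13310 in sponge cells without IL-7, 17700 and 24620 in scrambled cells without IL-7, 1778 and 1879 in sponge cells with IL-7, and 1317 and 2475 in scrambled cells with IL-7. All 4 arrays without IL-7 were above all 4 with it, and the scrambled arrays without IL-7 were the highest. The change on withdrawal was 2.62 ± 0.22 log2 units in sponge cells (SE, n = 2 arrays per group, adjusted p = 0.00255) and 3.43 ± 0.22 in scrambled cells (adjusted p = 0.000287). The difference between these changes, sponge minus scrambled, was -0.81 ± 0.31 and did not pass the test (adjusted p = 0.19, 95% confidence interval -1.57 to -0.06). None of the 5 members was called for that difference, where 5.27% of all genes tested were called. In the order of the levels, the scrambled group without IL-7 came first and the sponge group without IL-7 next, and the groups with IL-7 overlapped each other.

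The Igkc-named probe was far dimmer. Its processed signals were 158.2 and 151.7 in sponge cells without IL-7, 138.8 and 170.2 in scrambled cells without IL-7, 19.37 and 25.85 in sponge cells with IL-7, and 17.64 and 25.16 in scrambled cells with IL-7. The arrays without IL-7 lay above all those with IL-7, and within either medium the processed signals of the constructs overlapped. On the normalized log2 scale the sponge arrays without IL-7 (-1.35 and -1.43) lay just below the scrambled ones (-1.33 and -1.12), a difference that was not called. The change on withdrawal was 2.63 ± 0.17 log2 units in sponge cells (adjusted p = 0.00163) and 2.77 ± 0.17 in scrambled cells (adjusted p = 0.00027). With IL-7 the processed signal, already corrected for background, was about as large as the median local background of 17 to 20 units. Normexp background correction adds an offset of 50 units to every signal, which lowers the folds of dim probes. With it the changes were 1.18 in sponge cells and 1.20 in scrambled cells, both still called. How much of the drop came from the offset was not tested.

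**Figure D1:**
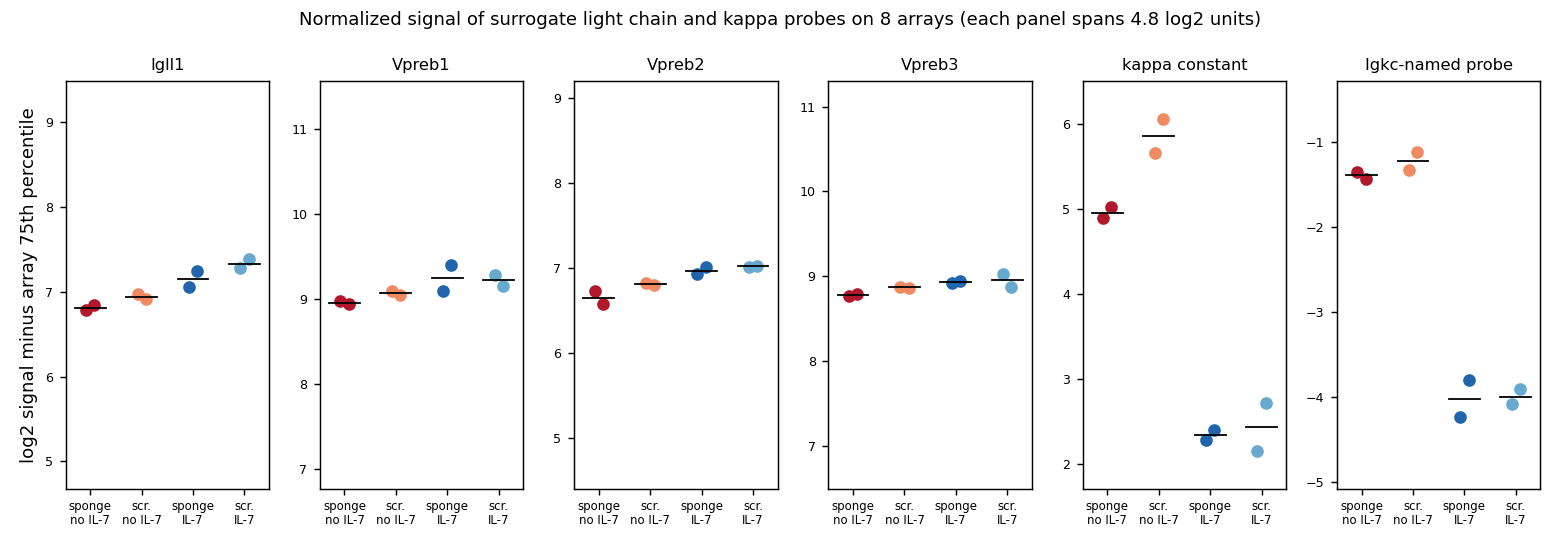
Normalized log2 signal (log2 units above or below each array's 75th percentile, vertical axis) of 4 surrogate light chain probes and 2 kappa probes, with 1 point per array, a bar at each group's mean and the groups sponge without IL-7, scrambled without IL-7, sponge with IL-7 and scrambled with IL-7 from left to right. All panels span the same number of log2 units: the kappa probes separate the media by 2.62 log2 units or more, and the surrogate light chain probes by less than 0.4.

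Igll1 encodes lambda5, the part of the surrogate chain that resembles a constant domain. Its normalized log2 signal was 6.78 and 6.84 in sponge cells without IL-7, 6.97 and 6.91 in scrambled cells without IL-7, 7.05 and 7.24 in sponge cells with IL-7, and 7.28 and 7.38 in scrambled cells with IL-7. In both constructs the arrays without IL-7 were below those with IL-7. The change was -0.33 ± 0.09 log2 units in sponge cells (adjusted p = 0.0524, not called) and -0.39 ± 0.09 in scrambled cells (adjusted p = 0.017). The size of this change in scrambled cells was ordinary, since 47.8% of all genes tested had a smaller one.

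Vpreb1 and Vpreb2 encode the variable-domain part of the surrogate chain and are near copies of each other. Vpreb1 read 8.98 and 8.94 in sponge cells without IL-7, 9.10 and 9.05 in scrambled cells without IL-7, 9.10 and 9.40 in sponge cells with IL-7, and 9.29 and 9.16 in scrambled cells with IL-7. Neither withdrawal change of Vpreb1 passed the test (-0.29 ± 0.12 in sponge cells, adjusted p = 0.133, and -0.14 ± 0.12 in scrambled cells, adjusted p = 0.345). The 95% interval of the Vpreb1 change in scrambled cells ran from -0.43 to 0.14.

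Vpreb2 read 6.73 and 6.58 in sponge cells without IL-7, 6.83 and 6.80 in scrambled cells without IL-7, 6.93 and 7.01 in sponge cells with IL-7, and 7.02 and 7.03 in scrambled cells with IL-7. The arrays without IL-7 were again below those with IL-7 in both constructs, as they were for Vpreb1 and, before rounding, Vpreb3. The share of all genes whose arrays separate in this way was not counted, so nothing is concluded from the separation. The Vpreb2 change was -0.31 ± 0.08 in sponge cells (adjusted p = 0.0394, and 0.0595 with the replicate number as a block) and -0.21 ± 0.08 in scrambled cells (adjusted p = 0.0735).

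Vpreb3 is a more distant relative whose product binds newly made immunoglobulin chains inside the cell. Vpreb3 read 8.77 and 8.79 in sponge cells without IL-7, 8.88 and 8.86 in scrambled cells without IL-7, 8.92 and 8.95 in sponge cells with IL-7, and 9.03 and 8.88 in scrambled cells with IL-7. It changed by -0.15 ± 0.07 in sponge cells (adjusted p = 0.199) and -0.09 ± 0.07 in scrambled cells (adjusted p = 0.383), and neither passed the test.

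The direction of the small surrogate light chain changes turned with the scaling, except for Vpreb1 in sponge cells, which stayed at -0.02 or below and was not called. The 4 genes are among the brightest on the arrays, with processed signals between 38550 and 243000. Under quantile normalization the change of Vpreb2 in sponge cells was 0.10, that of Igll1 in scrambled cells was 0.02, and that of Vpreb3 in scrambled cells was 0.18. In the authors' deposited value table those 3 changes were 0.13, 0.06 and 0.18, and Vpreb2 changed by 0.23 in scrambled cells. Over 10 alternative ways of processing, the lowest adjusted p of the limma fit in scrambled cells was 0.0263 for Vpreb2 and 0.0485 for Vpreb3. Both genes, uncalled in the main fit, thus passed under at least 1 alternative. With the percentile taken over probes above background on all arrays, Igll1 in scrambled cells changed by -0.24 and was no longer called (adjusted p = 0.0559). Igll1 in scrambled cells also lost its call without replicate 2 of scrambled cells with IL-7 (adjusted p = 0.061) and without either replicate of scrambled cells without IL-7 (adjusted p = 0.0601 and 0.0901), and Vpreb2 in sponge cells lost its call without any 1 array. No direction is therefore given to the surrogate light chain genes on withdrawal.

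**Figure D2:**
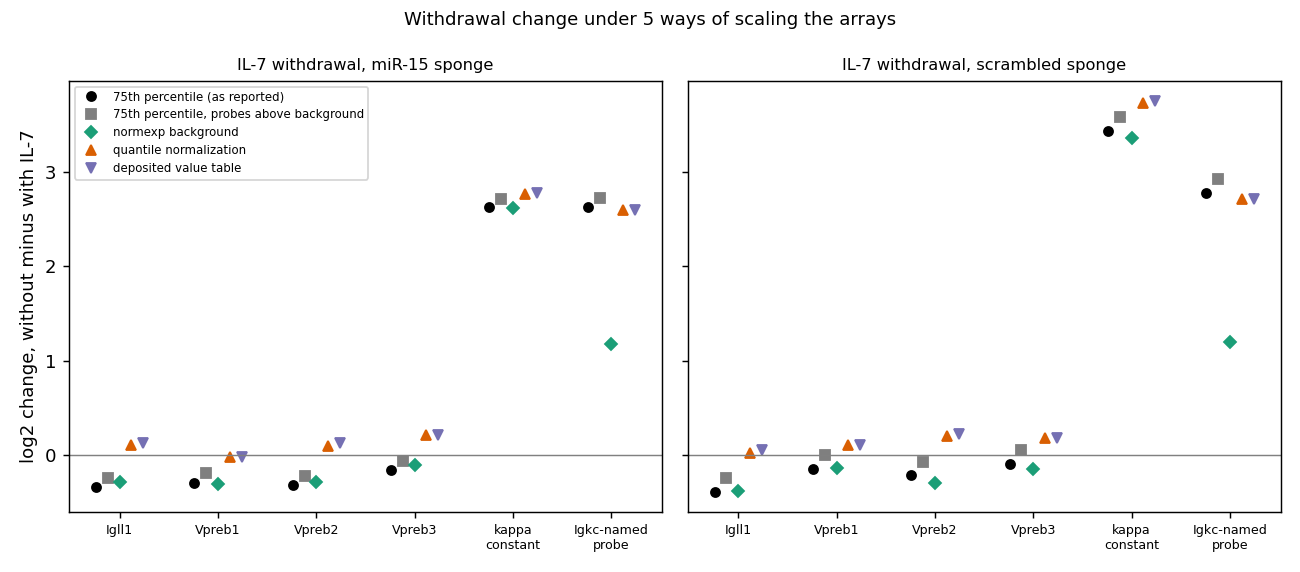
Withdrawal change (log2, without minus with IL-7, vertical axis) of the 6 light chain probes in miR-15 sponge cells on the left and scrambled sponge cells on the right, with 1 symbol for each of 5 ways of scaling the arrays. The surrogate light chain probes lie on both sides of 0 depending on the scaling, except Vpreb1 in sponge cells, which stays at -0.02 or below, while the kappa constant-region probe stays at 2.61 or above in all of them and the Igkc-named probe drops to 1.18 in sponge cells and 1.20 in scrambled cells under normexp correction.

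The distance between the kappa and the surrogate readings is free of a constant shift of the whole array, but not of other changes of scale or background. Without IL-7, against with IL-7, the kappa constant-region probe gained 2.95 log2 units on Igll1 in sponge cells and 3.82 in scrambled cells. Against Vpreb1 it gained 2.91 in sponge cells and 3.58 in scrambled cells, against Vpreb2 2.93 and 3.65, and against Vpreb3 2.77 and 3.52. For the Igkc-named probe the gains ran from 2.78 against Vpreb3 to 2.96 against Igll1 in sponge cells, and from 2.86 to 3.16 in scrambled cells. Under normexp correction its gain on Igll1 was 1.46 in sponge cells and 1.57 in scrambled cells. The gains without normexp correction all exceed the SD between replicate arrays of the same differences, which was 0.50 at most. Each SD rests on 2 arrays, and none was computed under normexp correction.

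Comparing the miR-15 sponge with the scrambled sponge, no member was called with IL-7, where 1.13% of all genes tested were called, or without IL-7, where 32.1% were called. With IL-7 the member changes were -0.19 ± 0.09 for Igll1, 0.02 ± 0.12 for Vpreb1, -0.06 ± 0.08 for Vpreb2, -0.02 ± 0.07 for Vpreb3 and -0.03 ± 0.17 for Igkc. Without IL-7 they were -0.13 ± 0.09 for Igll1, -0.12 ± 0.12 for Vpreb1, -0.16 ± 0.08 for Vpreb2, -0.09 ± 0.07 for Vpreb3 and -0.17 ± 0.17 for Igkc. The 95% intervals without IL-7 reached -0.36 for Igll1 and -0.58 for Igkc, so changes of those sizes are within the error of 2 arrays per group.

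The kappa constant-region probe did differ between the constructs without IL-7. It was 1.88-fold lower in sponge cells, by -0.91 ± 0.22 log2 units (adjusted p = 0.0247), and with IL-7 the difference was -0.09 ± 0.22 (adjusted p = 0.825). The processed signals of 11900 and 13310 in sponge cells lay below those of 17700 and 24620 in scrambled cells. The size stayed between -1.11 and -0.71 when any 1 array was left out, but the call was lost without either replicate of sponge cells without IL-7 (-0.84, adjusted p = 0.112, and -0.98, adjusted p = 0.0809) or without replicate 2 of scrambled cells without IL-7 (-0.71, adjusted p = 0.128). In bulk RNA, fewer cells with a kappa transcript and less kappa RNA per cell cannot be told apart.

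**Figure D3:**
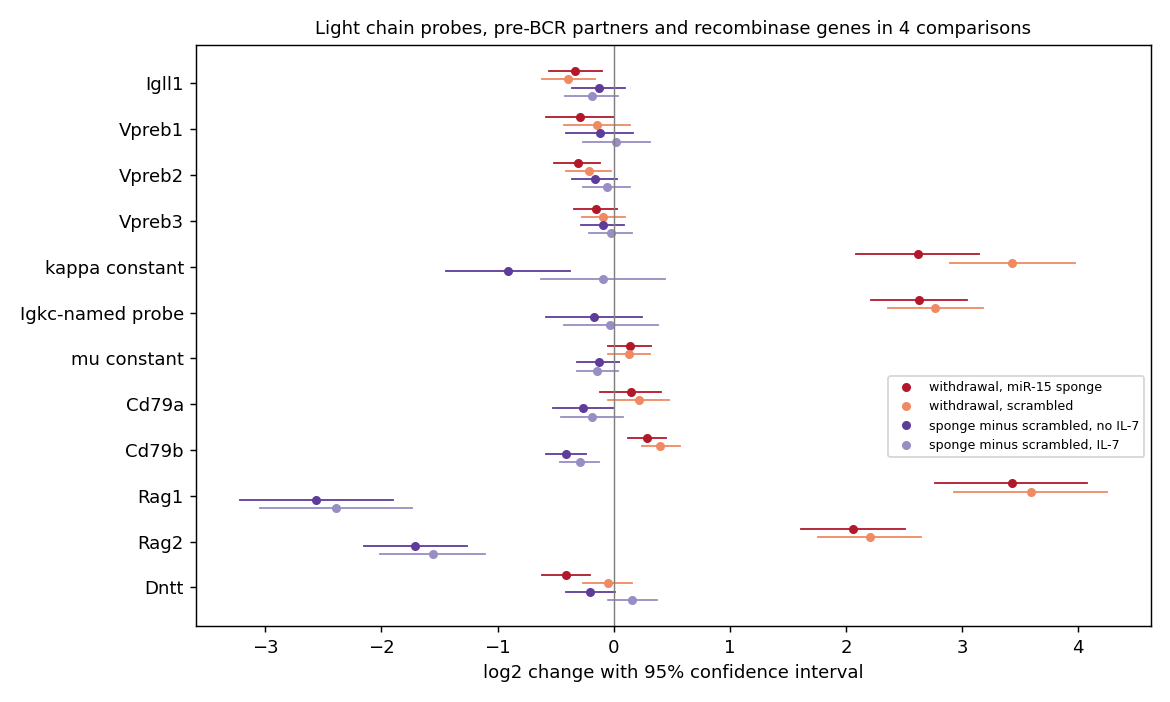
Log2 change (horizontal axis, points) with its 95% confidence interval (lines) for the 6 light chain probes, the mu constant-region probe, Cd79a, Cd79b, Rag1, Rag2 and Dntt, in the 2 withdrawal comparisons and the 2 comparisons of miR-15 sponge with scrambled sponge. The kappa probes, Rag1 and Rag2 stand far to the right on withdrawal. In sponge minus scrambled without IL-7 all points lie left of 0. Only the intervals of the kappa constant-region probe, Cd79b, Rag1 and Rag2 lie wholly left of 0 there, and the others reach it.

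Of the partners of the surrogate chain in the pre-B cell receptor, Cd79b was called on withdrawal, and the size of all 3 depended on the scaling. The mu constant-region probe, which reads the heavy chain Ighm and is printed 10 times per array, changed by 0.14 ± 0.07 in sponge cells (adjusted p = 0.246) and 0.13 ± 0.07 in scrambled cells (adjusted p = 0.196). Under quantile normalization the Ighm changes were 0.54 (adjusted p = 0.01) and 0.47 (adjusted p = 0.00405), both called. Cd79a, a signalling chain of the receptor, changed by 0.15 ± 0.11 in sponge cells and 0.22 ± 0.11 in scrambled cells, and neither passed the test. Under quantile normalization Cd79a passed in both, at 0.58 (adjusted p = 0.0205) in sponge cells and 0.64 (adjusted p = 0.00512) in scrambled cells. Cd79b, its partner, rose by 0.29 ± 0.07 in sponge cells (adjusted p = 0.0325) and 0.40 ± 0.07 in scrambled cells (adjusted p = 0.00466), or by 0.69 and 0.65 under quantile normalization. Without IL-7 Cd79b was lower in sponge than in scrambled cells (-0.41 ± 0.07, adjusted p = 0.00715, and -0.27 under quantile normalization). The authors' deposited value table gave changes like those under quantile normalization for the 3 genes, at 0.55 and 0.49 for Ighm, 0.60 and 0.66 for Cd79a and 0.69 and 0.64 for Cd79b in sponge and scrambled cells.

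Of the 17 genes of the receptor's signalling list, 4 rose and 1 fell in sponge cells, with a median of 0.15 against -0.06 over all genes, and 6 rose and 3 fell in scrambled cells, with a median of 0.19 against -0.02 over all genes. Over all genes 7.92% rose and 15.3% fell in sponge cells, and 20.7% rose and 27.4% fell in scrambled cells. Those that rose in both included Syk, the kinase recruited to the receptor, by 0.53 in sponge cells and 0.61 in scrambled cells, or by 0.96 and 1.02 under quantile normalization. The one that fell in both was the phosphatase gene Ptpn6 (-0.37 in sponge cells and -0.72 in scrambled cells). Under quantile normalization Ptpn6 gave -0.13 in sponge cells (adjusted p = 0.344, not called) and -0.41 in scrambled cells.

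Rag1 and Rag2 rose with kappa on withdrawal and were lower in sponge than in scrambled cells in both media. Rag1, a subunit of the recombinase, had processed signals of 452.8 and 581.3 in sponge cells without IL-7, 2354 and 3035 in scrambled cells without IL-7, 34.07 and 53.47 in sponge cells with IL-7, and 161.2 and 267.0 in scrambled cells with IL-7. The 4 groups did not overlap. Rag1 rose by 3.43 ± 0.27 on withdrawal in sponge cells (adjusted p = 0.00225) and 3.59 ± 0.27 in scrambled cells (adjusted p = 0.00037). It was lower in sponge than in scrambled cells without IL-7 (-2.56 ± 0.27, adjusted p = 0.00173) and with IL-7 (-2.39 ± 0.27, adjusted p = 0.0253). Rag1 was dim in sponge cells with IL-7, and under normexp correction its change was 2.36 on withdrawal in sponge cells and -1.45 between the constructs with IL-7. Rag2, the other subunit, rose by 2.06 ± 0.18 in sponge cells and 2.21 ± 0.18 in scrambled cells, and its sponge minus scrambled changes were -1.71 ± 0.18 without IL-7 and -1.56 ± 0.18 with IL-7, all called. With IL-7 the recombinase genes thus differed between constructs at called sizes while the kappa constant-region probe gave -0.09 ± 0.22 there. Dntt, which encodes the terminal transferase of earlier B cell precursors, gave -0.41 ± 0.09 in sponge cells (adjusted p = 0.0224) and -0.05 ± 0.09 in scrambled cells (adjusted p = 0.65). Under quantile normalization Dntt gave -0.04 in sponge cells (adjusted p = 0.75) and 0.40 in scrambled cells (adjusted p = 0.00774), so no direction is given to it. Of the 10 genes of the recombination list, 4 rose and 1 fell in sponge cells, where 7.92% of all genes rose and 15.3% fell. In scrambled cells 5 rose and 2 fell, where 20.7% of all genes rose and 27.4% fell. Without IL-7, 1 was higher and 4 were lower in sponge than in scrambled cells, where 16.8% of all genes were higher and 15.3% lower.

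Of the transcription factors linked to surrogate or kappa transcription, Ebf1, an activator of Igll1 and Vpreb1 in the mouse, rose by 0.46 in sponge cells (adjusted p = 0.0167) and 0.62 in scrambled cells (adjusted p = 0.00249), or by 0.73 and 0.98 under quantile normalization. Tcf3, which encodes the E2A proteins, changed by 0.19 in sponge cells and 0.17 in scrambled cells and passed neither test. Under quantile normalization Tcf3 passed both, at 0.52 (adjusted p = 0.0333) and 0.55 (adjusted p = 0.0112). Pax5 changed by 0.25 in sponge cells, where it was not called, and rose by 0.56 in scrambled cells. Ikzf1 and Ikzf3 encode Ikaros and Aiolos, which repress Igll1 in the mouse. Ikzf1 changed by 0.22 in sponge cells, where it was not called, and rose by 0.37 in scrambled cells. In sponge cells Ikzf1 was called under each of the other 4 scalings, with changes of 0.29 under normexp, 0.32 with the percentile over probes above background, 0.37 under quantile normalization and 0.38 in the deposited table. Ikzf3 rose by 0.46 in sponge cells and 0.52 in scrambled cells, or by 0.32 and 0.33 under normexp. Irf4, which acts at the kappa 3' enhancer in the mouse, rose by 0.94 in sponge cells (adjusted p = 0.00384) and 1.20 in scrambled cells (adjusted p = 0.000476).

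Of the remaining regulators, Myc, Id3, Foxp1 and Foxo1 had the smallest p in both constructs. Myc fell by 1.57 in sponge cells and 2.67 in scrambled cells, with -1.21 and -1.70 under normexp correction. Id3 fell by 0.44 in sponge cells (-0.21 and not called under quantile normalization) and 0.98 in scrambled cells. Foxp1 rose by 0.35 in sponge cells and 0.69 in scrambled cells, or by 0.70 and 1.09 under quantile normalization. Foxo1, an activator of the Rag genes, rose by 0.71 and 0.81 in sponge and scrambled cells. Of the 28 regulators tested, 7 rose and 2 fell in sponge cells, where 7.92% of all genes rose and 15.3% fell. In scrambled cells 16 rose and 3 fell, where 20.7% of all genes rose and 27.4% fell. Without IL-7, 15.3% of all genes were lower and 16.8% higher in sponge than in scrambled cells. Of the regulators 14 were lower and 2 higher there, with a median of -0.34 against -0.05 over all genes. The 2 that were higher were Myc (1.04, adjusted p = 0.00129, and 0.47 under normexp correction) and Id3 (0.58, adjusted p = 0.00576).

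The start regions of the surrogate genes are shown because 3 of these factors, Ebf1, E2A and Ikaros, are known to act there in the mouse. In the 250 bases before the RefSeq start of Igll1 (GRCm38.p6, chr16:16863986-16864235, minus strand) the EBF core CCCNNGGG occurred 1 time, 231 bases before the start, and the E-box CANNTG 3 times, both in capitals below. Both motifs read the same on either strand, and CCCNNGGG was present in 11.8% and CANNTG in 66.2% of 32851 RefSeq start windows of the same length. CCCNNGGG was in none of the windows of Vpreb1, Vpreb2 and Vpreb3, which held CANNTG 1, 2 and 5 times. The Ikaros core GGGAA was not in the Igll1 window on either strand, occurred 1, 2 and 2 times in those of Vpreb1, Vpreb2 and Vpreb3, and was in 56.2% of all windows. The FoxO motif GTAAACA was in none of the 4 surrogate gene windows and in 3.2% of all windows. The windows of Vpreb1 and Vpreb2 shared a block of 106 bases (GRCm38.p6, chr16:16869256-16869361, minus strand, and chr16:17980315-17980420, plus strand) that was 98.1% identical, with the 2 differing bases in capitals. It ends at the Vpreb1 start but lies at the far end of the Vpreb2 window, so the motif counts of these windows are not of matching stretches. In the block, CANNTG 88 bases before the Vpreb1 start is the same site as that 232 bases before the Vpreb2 start. GGGAA at 66 and at 210 bases is likewise 1 site. Sequences were matched by symbol and came from RefSeq, which gave a window for 4 of the 5 members.
Igll1 upstream: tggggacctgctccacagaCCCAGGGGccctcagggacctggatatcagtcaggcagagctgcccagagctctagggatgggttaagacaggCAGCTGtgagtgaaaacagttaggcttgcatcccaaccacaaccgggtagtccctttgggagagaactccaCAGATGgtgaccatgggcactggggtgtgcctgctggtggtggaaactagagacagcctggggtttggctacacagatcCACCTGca
Vpreb1 upstream: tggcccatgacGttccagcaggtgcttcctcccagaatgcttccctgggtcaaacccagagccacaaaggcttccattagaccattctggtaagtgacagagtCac
Vpreb2 upstream: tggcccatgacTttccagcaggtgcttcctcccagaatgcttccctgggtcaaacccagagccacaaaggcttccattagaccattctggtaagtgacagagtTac

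The rest of the kappa locus was read by probes of variable segments, chosen by their description after the annotation had been examined. Of 84 such probes 74 passed the filter on dim signal and were tested as probes. On withdrawal in sponge cells 42 rose and 2 fell, with a median of 0.82 log2 units, where 7.3% of all probes rose and 12.5% fell. In scrambled cells 59 rose and 6 fell, with a median of 1.56, where 21.4% of all probes rose and 24.8% fell. A probe that passed the filter only because it was bright without IL-7 had to differ, so the 50 probes above background on all 8 arrays are also given. Of these, 28 rose and 2 fell in sponge cells (median 0.64) and 38 rose and 6 fell in scrambled cells (median 1.31). The changes of the 50 in scrambled cells ran from -0.74 to 3.67. Igkv4-72, the 1 tested gene with a kappa name of its own besides Igkc, changed by -0.10 in sponge cells (adjusted p = 0.908) and 0.00 in scrambled cells (adjusted p = 0.999).

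Without IL-7, 53 of the 74 variable segment probes were lower and 8 higher in sponge than in scrambled cells, with a median of -1.11 against -0.06 over all probes, where 14.5% of all probes were lower and 15.5% higher. With IL-7, 6 of the 74 were lower and none higher (median -0.36), where 0.478% of all probes were lower and 0.187% higher. Among the 50 probes above background on all arrays, 36 were lower and 8 higher without IL-7. The 8 that were higher included all 7 tested probes of segment families 9 and 14, and 4 of the 6 probes that fell on withdrawal in scrambled cells also belonged to these families, which were singled out after their values were seen. Probes of related segments can bind each other's transcripts, so these counts are not of independent genes. The difference between the withdrawal changes, sponge minus scrambled, had a median of -0.65 over the 74 probes, against -0.05 over all probes. It was called for 2 of the 74, both positive and both of families 9 and 14, where 3.41% of all probes were called in that direction.

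**Figure D4:**
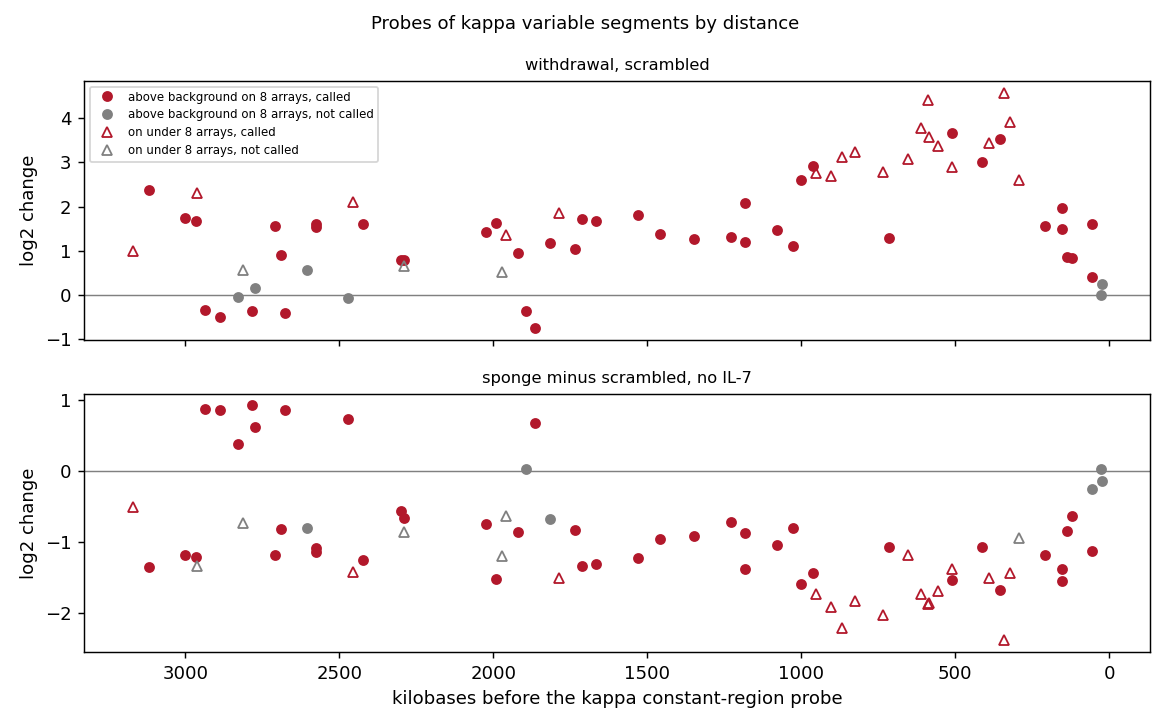
Log2 change (vertical axis) of 73 probes of kappa variable segments with a position on the chromosome, by distance before the kappa constant-region probe (kilobases, horizontal axis), for withdrawal in scrambled cells above and for sponge minus scrambled without IL-7 below. Filled circles are probes above background on all 8 arrays, open triangles those above it on fewer, and red marks an adjusted p under 0.05; most points lie above 0 in the upper panel and below 0 in the lower one, with the 7 probes of families 9 and 14 above 0 in the lower panel.

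The conventional lambda light chain locus behaved like kappa. All 5 probes described as lambda variable or constant segments rose on withdrawal, with a median of 3.19 in sponge cells, where 7.3% of all probes rose, and 4.48 in scrambled cells, where 21.4% rose. All 5 were lower in sponge than in scrambled cells without IL-7 (median -1.95), where 14.5% of all probes were lower. The probes of lambda constant 3 cover overlapping bases, and probes of related segments can bind each other's transcripts, so these are not independent readings. Of the 5 probes, 1 was above background on only 6 arrays. The 4 probes above background on all arrays rose on withdrawal too, with medians of 3.26 in sponge cells and 4.72 in scrambled cells. All 4 were lower in sponge than in scrambled cells without IL-7 (median -1.98). Of 13 tested heavy variable probes, 1 rose and 6 fell in sponge cells, where 12.5% of all probes fell. In scrambled cells 2 rose and 2 fell, where 21.4% of all probes rose and 24.8% fell. The heavy chain genes with names of their own were Ighv14-2, which rose by 0.76 in sponge cells and 0.87 in scrambled cells, Igh-VJ558, which changed by -0.46 in sponge cells (not called) and rose by 0.66 in scrambled cells (0.12 and not called under normexp correction), and Igh-V3660, which was called in neither.

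The genes whose pattern over the 8 arrays was most like that of each probe were sought among genes with an SD of at least 0.25 log2 units, by Pearson's r of normalized log2 values. For the kappa constant-region probe these were Irf4 (r = 0.9993), Txndc11 (0.9982) and Cd74 (0.9971), the last encoding the invariant chain of MHC class II. For the Igkc-named probe they were H2-Eb1 (0.994), 1500009C09Rik (0.992) and H2bc23 (0.9912). The 8 arrays fall into those with and without IL-7, so these r mostly rank how the media differ, and 257 genes had r over 0.95 with the constant-region probe. Igll1 was most like Igbp1 (0.9675), Plb1 (0.9641) and Ccnd2 (0.9638), Vpreb1 like Tas2r140 (0.9556), Bivm (0.9336) and Olfr638 (0.9194), Vpreb2 like Btbd3 (0.9828), Plb1 (0.9734) and Gm4825 (0.9731), and Vpreb3 like Nlrp1c-ps (0.9814), Rpl37 (0.9602) and Olfr441 (0.9589). These are the best of 7446 genes compared, of which 10 had r over 0.95 with Igll1, 1 with Vpreb1, 36 with Vpreb2 and 5 with Vpreb3. How many would do so by chance over 8 arrays was not tested. The surrogate genes have small ranges, with SDs over the arrays of 0.22 for Igll1, 0.15 for Vpreb1, 0.16 for Vpreb2 and 0.08 for Vpreb3. Among themselves they correlated at r = 0.77 to 0.91, and the 2 kappa probes at 0.98, with array and scaling shared by all points.

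Markers of the pre-B and immature stages give the setting of the kappa change. Of 16 tested, 7 rose and none fell in sponge cells (median 0.36), where 7.92% of all genes rose and 15.3% fell. In scrambled cells 11 rose and 1 fell (median 0.46), where 20.7% rose and 27.4% fell. H2-Aa, which rose by 2.46 in sponge cells and 1.47 in scrambled cells, was above background on only 3 arrays. It was brightest without IL-7, and a gene that passed the filter only for that reason had to differ. Of the list of 5 plasma cell markers, 3 were above background on all arrays, and the list summed to 12.1 to 13.0 times the 75th percentile on the 4 arrays without IL-7 and to less than that on all 4 arrays with IL-7, the lowest at 9.55. That sum is mostly Xbp1, with a mean of 3.44 log2 units above the percentile, and the members did not move one way. Prdm1 rose by 1.09 in sponge cells and 1.36 in scrambled cells, and Sdc1 changed by -0.59 and -1.79, all called. Their part in the kappa change was not tested.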

How the data were processed

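Per the labels' protocols, total RNA was labelled with Cy3 and hybridised to 1-colour Agilent arrays, and per the submitters' processing notes the arrays were read with Feature Extraction 10.7.1.1 (the file headers give 10.7.3.1). The deposited scanner files hold a processed signal, an intensity on a linear scale that the authors' software had corrected for background, per the file headers. The deposited value table also holds linear intensity values, which were put on the log2 scale and used as an alternative; how the authors scaled them is not given in the sources used here.

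Log2 processed signal minus each array's 75th percentile was used, flagged spots and control spots were left out, spots of a probe were averaged, and probes dim on an array of every group were dropped, so that each kept probe was well above background in 1 or more whole groups. The brightest kept probe stood for a gene, named by RefSeq accession for 27235 probes, by symbol for 3581 and by synonym for 565, and by the file's own name for 24300. limma 3.58.1 in R 4.3.3 was fitted to 21318 genes over all 8 arrays, with Benjamini-Hochberg adjustment over all of them, and to 30954 probes for the immunoglobulin segments. The fit was tested on simulated data. The number of arrays limits the precision. The study's design text says that replicates are independently made clones in separate experiments, which pairs arrays of the same number; deviations of same-numbered arrays correlated at 0.0176 to 0.131.

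The members, the gene lists and the tests were chosen with earlier results of these data known. The text names every member, the receptor partners Ighm, Cd79a and Cd79b, the named kappa, lambda and heavy genes with the highest means, 6 fixed regulators and the 4 others with the smallest p in each withdrawal, Rag1, Rag2 and Dntt, and the 3 genes most like each member. The kappa constant-region probe and the probes of variable segments were added after the annotation had been examined. Testing every kept probe was an alternative chosen after seeing the data, as were all alternatives for the constant-region probe. The other alternatives changed the background correction, the scaling, the filter, the flags, the probe rule, the replicate block and the arrays included. Normexp correction used an offset of 50 intensity units.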

Additional observations from a re-analysis of the deposited data

How the results depend on the processing

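The rise of both kappa probes on withdrawal kept its direction and its call under all 10 alternatives: 2.61 to 2.77 (sponge) and 3.36 to 3.75 (scrambled) for the constant-region probe, and 1.18 to 2.72 and 1.20 to 2.92 for the Igkc-named probe. The surrogate light chain genes did not, except Vpreb1 in sponge cells, which stayed between -0.30 and -0.02 and uncalled. Under quantile normalization Vpreb2 gave 0.10 in sponge cells (1 member called there), and Igll1 0.02 and Vpreb3 0.18 in scrambled cells. In the deposited value table Vpreb2 gave 0.13 in sponge cells (1 member called there), and Igll1 0.06, Vpreb2 0.23 and Vpreb3 0.18 in scrambled cells. Normexp correction gave Vpreb2 -0.28 in sponge cells (not called, with 1 member called there) and -0.29 in scrambled cells (called). The percentile over probes above background gave -0.22 for Vpreb2 in sponge cells and -0.24 for Igll1 in scrambled cells, both not called, 1 member called in each withdrawal, and 1 called in sponge minus scrambled without IL-7 (Vpreb2, -0.25). Without a filter Vpreb2 in sponge cells was -0.31 and not called (1 member called), and with probes above background on all 8 arrays Igll1 in sponge cells was -0.33 and called. With the replicate block Vpreb2 in sponge cells was -0.31 and not called, which left 1 member called, and the block changed no other call of a member; it took the called genes in sponge minus scrambled with IL-7 to 151, against 241. The gain of the Igkc-named probe on Igll1 was 1.46 and 1.57 (sponge, scrambled) under normexp, 2.48 and 2.69 under quantile normalization and 2.46 and 2.65 in the deposited table; that of the constant-region probe in sponge cells was 2.65 and 2.64 under the last 2. Without 1 array at a time, Vpreb2 in sponge cells ran from -0.39 to -0.24, Igll1 in scrambled cells from -0.44 to -0.33, and the members called from 1 to 1 in sponge cells and 1 to 2 in scrambled cells. The genes called without 1 array ran from 1737 to 5141 and 6770 to 10357 for withdrawal in sponge and scrambled cells, 3416 to 7447 and 38 to 1363 for sponge minus scrambled without and with IL-7, and 0 to 1618 for the interaction (1124 with all arrays). The genes called for the interaction were also 0 with no filter and 0 with the replicate block, and 1716 with probes above background on all 8 arrays, those for withdrawal in sponge cells were 2643 with no filter (4939 with it), and those for sponge minus scrambled with IL-7 were 388 under normexp, 82 with no filter and 432 with probes above background on all 8 arrays. The call of the constant-region probe between constructs without IL-7 was lost with no filter (-0.91, adjusted p = 0.0572). The cause of these changes was not tested. The percentile over probes above background moved the median of all genes by more than 0.1 log2 units, to 0.12 for withdrawal in scrambled cells and -0.13 for sponge minus scrambled without IL-7. With IL-7 the Igkc-named probe is dim, with a corrected signal about as large as the local background, which limits the precision of its fold.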
